A study of Mus musculus with 24 samples.

Results

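Matrix metalloproteases, the related ADAMTS proteases and their tissue inhibitors were followed through mouse lung organoids that had been given cigarette smoke extract, a drug pair, both or neither. The members were taken by symbol from the deposited table of counts: every Mmp gene with a number, every Adamts and Adamtsl gene with a number, and Timp1 to Timp4. This gave 51 genes of 49280 features, with 23 Mmp, 19 Adamts, 5 Adamtsl and 4 Timp genes.

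Matrix metalloproteases are zinc enzymes, most of them secreted as inactive precursors, that cut collagens, laminins, proteoglycans and other proteins outside the cell, and a few are held in the cell membrane. ADAMTS enzymes cut procollagens and the large proteoglycans, ADAMTS-like proteins share their outer domains but have no protease domain, and TIMPs bind and block the active enzymes. In the lung these genes are studied for the breakdown of elastin and collagen in emphysema, to which smoke exposure is linked.

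The organoids were grown in Matrigel, a basement membrane gel, from primary lung epithelial cells of wild-type mice mixed with CCL206, a mouse lung fibroblast line. Cells were taken at day 28 and split into Epcam-positive and Epcam-negative cells, called Epi and Fib here after the labels. Each fraction had 4 groups of 3 mice, 24 libraries in all. CSETF cultures received 5% cigarette smoke extract (CSE) over the first 14 days and afterwards 100 nM tanimilast, an inhibitor of phosphodiesterase 4, with 100 nM formoterol, a long-acting beta-2 agonist. TF cultures had vehicle in place of CSE and afterwards the same drugs, CSE cultures had CSE and afterwards no drug, and Veh cultures had vehicle throughout. Between the periods all groups were taken apart and equal numbers of epithelial cells were plated again with CCL206 cells that had not been exposed, so the fibroblasts collected had been in culture with CSE-exposed epithelium and had not themselves been given CSE. The mouse number marks the animal that gave the epithelium. The fibroblasts were 1 line in all cultures, and the tests measured the spread between 3 mice and their cultures.

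Library totals were 31832267 to 47534709 counts. Levels are CPM, counts scaled to the library total, and 1 CPM stood for at least 31.8 counts. The 10 epithelial markers summed to 8810 to 12400 CPM in Epi libraries and 3110 to 6320 CPM in Fib libraries, so that the fibroblast fraction still held epithelial RNA. Epcam itself was at 271 to 667 CPM there, against 819 to 1700 CPM in Epi. In CSE and CSETF cultures this epithelium had itself been given CSE. Which cells a difference in Fib came from was not tested. The 10 fibroblast markers summed to 103 to 783 CPM in Epi and 1050 to 3170 CPM in Fib libraries, with Thy1 at or near 0 in both and at 0 in 8 libraries. Leukocyte markers summed to at most 74.7 CPM, nearly all of it Cd68, and Ptprc, carried by all leukocytes, reached 0.26 CPM. Endothelial markers summed to at most 2.75 CPM. The CSE-exposed cultures of mouse 1 stood apart from the others in many genes, several ADAMTS genes among them. In Fib, 10.7% of 15542 genes were higher in both of these cultures than in the other 10 libraries. Results are also given without these cultures.

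Of the 51 members, 36 passed the filter on low counts in the Epi libraries, 35 in the Fib libraries and 37 over both. The 14 that passed nowhere were Adamts3, Adamts15, Adamts16, Adamts18, Adamts19, Adamts20, Adamtsl2, Mmp1b, Mmp7, Mmp8, Mmp20, Mmp21, Mmp25 and Mmp27, and none of them had more than 17 counts in any library. They include the neutrophil collagenase Mmp8, the enamel protease Mmp20 and matrilysin, Mmp7. Mmp1a passed only over both fractions, with 0 counts in 11 libraries and at most 16, and Adamts17 passed in Epi and over both but not in Fib.

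Most tested members were lower in the epithelial than in the fibroblast fraction. A gene is called where its adjusted p was under 0.05 over all genes tested (edgeR's quasi-likelihood test with Benjamini-Hochberg adjustment). Over all 24 libraries, 33 of 37 members were called, 4 higher and 29 lower in Epi, where 68.9% of all 19142 genes tested were called, 34.7% up and 34.2% down. With the mouse as a block 35 members were called, 6 up and 29 down, against 72.2% of all genes. Neither fit paired the fractions of a culture. With each culture as a block, Mmp23 (0.45, adjusted p = 0.000174) and Adamts5 (0.49, adjusted p = 0.0107) were called higher in Epi, as with the mouse block. The median log2 fold change, Epi over Fib, was -1.84 over the members and 0.0255 over all genes. A lower level in a fraction can come with fewer cells that express a gene or with less RNA per cell, which bulk libraries cannot tell apart.

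**Figure D1:**
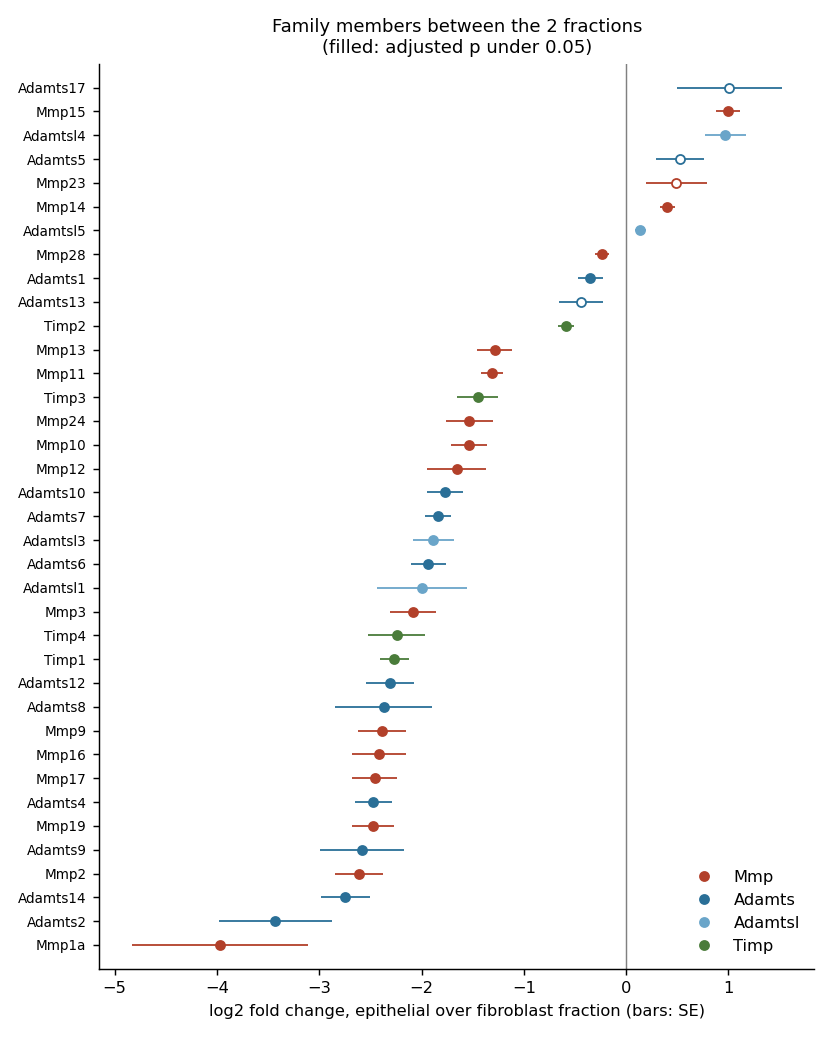
Log2 fold change of the 37 tested members, Epi over Fib, with its standard error on the x axis and 1 gene per line, coloured by family. Filled points had an adjusted p under 0.05: 29 lie left of 0 and 4 right of it, with Mmp15, Adamtsl4, Mmp14 and Adamtsl5 on the right, and the fitted value of Mmp1a rests on at most 16 counts a library.

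In Fib libraries 3 TIMPs were the most abundant members per length, while in Epi Adamtsl4, Mmp15 and Mmp14 stood between Timp2 and Timp3. Timp2, which also takes part in activating the Mmp2 precursor, averaged 133 ± 21.0 CPM per kb of exon in Epi and 207 ± 32.7 CPM per kb in Fib (SD, n = 12 each). Timp1, a secreted inhibitor, averaged 34.0 ± 9.89 CPM per kb in Epi and 171 ± 36.0 CPM per kb in Fib. Timp3, which stays bound to the matrix and also blocks several ADAM and ADAMTS enzymes, averaged 46.7 ± 19.2 CPM per kb in Epi and 134 ± 35.9 CPM per kb in Fib. All 3 were lower in Epi in each of the 12 cultures, with log2 fold changes of -0.59 ± 0.079, -2.27 ± 0.14 and -1.45 ± 0.20 (SE) and adjusted p of 1.78e-06, 1.97e-10 and 3.06e-06. Timp4 was rare, at 0.238 to 2.22 CPM in Epi and 2.75 to 6.72 CPM in Fib, and also lower in Epi (-2.24 ± 0.28). Timp3 shares 21.3% of its exon length with exons of Syn3 on the other strand, but Syn3 reached only 2.93 CPM.

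The secreted proteases were mostly fibroblast-fraction genes. The gelatinase Mmp2 was at 10.7 to 106 (median 24.8) CPM in Epi and 133 to 290.3 (median 201) CPM in Fib libraries, with no overlap, which is -2.61 ± 0.23 on the log2 scale (adjusted p = 1.06e-08). The second gelatinase, Mmp9, was at 3.33 to 24.6 (median 7.79) CPM in Epi and 25.4 to 73.6 (median 51.5) CPM in Fib, again without overlap (-2.39 ± 0.24). Both were lower in Epi in each of the 12 cultures. The share of all genes without overlap between the fractions was not counted, here and below.

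Among the stromelysins, which cut proteoglycans, laminin and other proteases' precursors, Mmp10 was at 2.91 to 16.9 (median 5.47) CPM in Epi and 9.74 to 33.7 (median 17.6) CPM in Fib, and Mmp3 at 0.555 to 8.65 (median 2.20) CPM in Epi and 5.02 to 21.3 (median 10.8) CPM in Fib. The collagenase Mmp13 was at 4.13 to 20.1 (median 7.17) CPM in Epi and 10.1 to 34.99 (median 18.6) CPM in Fib. The ranges overlapped for these 3 genes, yet each was lower in Epi in all 12 cultures, at -1.54 ± 0.18, -2.08 ± 0.22 and -1.28 ± 0.17 (adjusted p = 2.91e-07, 1.02e-07 and 2.15e-06). Mmp11 (-1.31 ± 0.10), Mmp19 (-2.48 ± 0.20) and the elastase of macrophages, Mmp12 (-1.66 ± 0.29), were also lower in Epi, and the epidermal protease Mmp28 by a small step (-0.24 ± 0.071), a call lost without mouse 2 (-0.21, adjusted p = 0.0615). Tmem198b, whose exons on the other strand cover 22.3% of the exon length of Mmp19, was at 7.76 to 13.4 CPM in Epi and 12.6 to 22.3 CPM in Fib.

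The membrane-type enzymes split. Mmp14, which activates the Mmp2 precursor at the cell surface, was at 283 to 485 (median 387) CPM in Epi and 261 to 338 (median 298) CPM in Fib, and higher in Epi in all 12 cultures (0.40 ± 0.073, adjusted p = 6.99e-05). Mmp15, a second membrane-type enzyme, was at 222 to 513 (median 357) CPM in Epi and 114 to 278 (median 185) CPM in Fib and was also higher in Epi in all 12 (0.996 ± 0.12, adjusted p = 3.93e-07). Per length, Mmp15 averaged 65.7 ± 14.2 and Mmp14 63.9 ± 9.80 CPM per kb in Epi, the most abundant proteases there. In Fib the order differed, with Mmp2 at 60.1 ± 15.5, Mmp14 at 50.1 ± 4.18, Adamtsl4 at 44.6 ± 16.1 and Mmp15 at 34.6 ± 10.1 CPM per kb, where neighbours in the order differ by less than the larger of their SDs. Mmp16, Mmp17 and Mmp24 were lower in Epi, at -2.41 ± 0.26, -2.46 ± 0.22 and -1.53 ± 0.23. Mmp23 was not called (0.49 ± 0.30, adjusted p = 0.151) and was higher in Epi with the mouse as a block (0.44 ± 0.15, adjusted p = 0.0127).

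Of the 13 Adamts genes tested, 10 were lower in Epi and 3 were not called. The procollagen-trimming enzymes were among the lowest, with Adamts2 at 0.214 to 1.53 (median 0.664) CPM in Epi and 1.73 to 50.1 (median 4.28) CPM in Fib (-3.43 ± 0.55) and Adamts14 at 3.73 to 17.2 (median 6.005) CPM in Epi and 26.3 to 101 (median 50.1) CPM in Fib (-2.74 ± 0.24). The ranges of both genes did not overlap. Without the CSE-exposed cultures of mouse 1, whose Fib libraries were the highest for both, the calls held, as did those of the other members but for Adamts1 and Adamtsl5.

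Enzymes that cut versican and aggrecan, the large proteoglycans, were also lower in Epi: Adamts4 (-2.47 ± 0.18), Adamts8 (-2.37 ± 0.47), Adamts9 (-2.59 ± 0.41) and, by little, Adamts1 (-0.35 ± 0.12, adjusted p = 0.0147). Adamts1 was at 33.2 to 46.3 (median 39.1) CPM in Epi and 41.3 to 102 (median 46.6) CPM in Fib, and its call was lost without mouse 1 (-0.15, adjusted p = 0.0616) and without the CSE-exposed cultures of mouse 1 (-0.16, adjusted p = 0.0628). Adamts5, of the same group, was not called (0.53 ± 0.23, adjusted p = 0.0508) and was higher in Epi with the mouse as a block (0.49 ± 0.17, adjusted p = 0.0158), without mouse 1 (0.78, adjusted p = 0.0388), without the CSE-exposed cultures of mouse 1 (0.66, adjusted p = 0.0269), and without any 1 of 6 libraries: FibVeh, EpiCSE and EpiCSETF of mouse 1, FibCSETF of mouse 2, and EpiVeh and EpiCSETF of mouse 3. Also lower were Adamts7 (-1.84 ± 0.13) and Adamts12 (-2.31 ± 0.23), which cut cartilage oligomeric matrix protein, as well as Adamts6 (-1.93 ± 0.17) and Adamts10 (-1.77 ± 0.18). Adamts13, which cuts von Willebrand factor, and Adamts17 stayed under 1 CPM and were not called, at -0.44 ± 0.21 and 1.01 ± 0.51 (adjusted p = 0.0764 and 0.0867).

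The ADAMTS-like genes went both ways. Adamtsl4, which binds fibrillin, was at 159 to 523 (median 372) CPM in Epi and 73.8 to 302 (median 205) CPM in Fib and was higher in Epi in all 12 cultures (0.97 ± 0.20, adjusted p = 0.000297). Adamtsl1 (-1.99 ± 0.44) and Adamtsl3 (-1.88 ± 0.20) were lower. Adamtsl5 was 0.14 ± 0.056 higher (adjusted p = 0.0345), a call that was lost without any 1 of 17 single libraries (adjusted p 0.0585 to 0.169), all but FibVeh and FibCSETF of mouse 1, FibVeh and EpiTF of mouse 2, and FibTF, FibCSETF and EpiVeh of mouse 3, and also without mouse 1 (0.241), mouse 2 (0.11) or the CSE-exposed cultures of mouse 1 (0.101), and with another scaling of the libraries (0.0655).

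In the fibroblast fraction, the stromelysin Mmp10 was lower with the drugs, and with the mouse as a block 4 more secreted proteases were lower as well. Mmp10 had 13.8, 9.74 and 13.4 CPM in FibCSETF and 14.4, 11.3 and 14.7 CPM in FibTF, against 20.4, 33.7 and 27.0 CPM in FibCSE and 22.0, 27.1 and 30.4 CPM in FibVeh, for mice 1, 2 and 3 in that order here and below. All 6 libraries with drugs were below all 6 without, and the share of all genes that separate in this way was not counted. Its log2 fold change, averaged over CSE, was -1.04 ± 0.14 (SE; adjusted p = 0.0268, lower with drugs in 6 of 6 pairs of the same mouse and CSE treatment). It was the 1 member called of 35 tested, where 0.109% of the 18287 genes tested were called and 0.0492% were lower.

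With the mouse as a block 6 members were called, 1 up and 5 down, against 2.54% of all genes, 1.6% up and 0.935% down. These were Mmp10 (adjusted p = 0.0154), Mmp13, Mmp3, Mmp2 and Mmp19, all lower with drugs, and Mmp15, which was higher. Mmp3, the stromelysin that sits near Mmp10 on chromosome 9, had 8.79, 7.45 and 11.2 CPM in FibCSETF and 8.29, 5.02 and 6.43 CPM in FibTF, against 10.5, 19.0 and 21.3 CPM in FibCSE and 12.6, 11.4 and 12.8 CPM in FibVeh. All 3 FibTF libraries were below all 6 without drugs, but the FibCSETF library of mouse 3 was above the FibCSE library of mouse 1. Its log2 fold change was -0.88 ± 0.17 with the block (adjusted p = 0.0321), and -0.88 ± 0.18 without it (adjusted p = 0.104). The collagenase Mmp13 had 15.6, 10.1 and 13.8 CPM in FibCSETF and 18.8, 11.9 and 18.0 CPM in FibTF, against 18.3, 34.99 and 33.1 CPM in FibCSE and 26.9, 29.9 and 27.5 CPM in FibVeh. Only the FibTF library of mouse 1 was above a library without drugs, that of FibCSE from the same mouse. With the block it was at -0.95 ± 0.18 (adjusted p = 0.0321), and without it at -0.95 ± 0.17 (adjusted p = 0.0875).

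The gelatinase Mmp2 had 209.5, 148 and 143 CPM in FibCSETF and 185, 133 and 158 CPM in FibTF, against 290.3, 276 and 241 CPM in FibCSE and 200.1, 244 and 202 CPM in FibVeh. The groups overlapped at mouse 1, whose FibCSETF library was above 2 of the FibVeh libraries, while the pairs of the same mouse were lower with drugs in 6 of 6. It was at -0.57 ± 0.094 with the block (adjusted p = 0.0241) and at -0.56 ± 0.11 without (adjusted p = 0.104). Mmp19, a secreted protease of basement membrane proteins, had 64.3, 53.5 and 51.0 CPM in FibCSETF and 62.5, 43.7 and 55.6 CPM in FibTF, against 79.7, 89.5 and 78.5 CPM in FibCSE and 59.6, 66.8 and 64.4 CPM in FibVeh. It was lower with drugs in 5 of 6 pairs, at -0.39 ± 0.083 with the block (adjusted p = 0.0417) and -0.38 ± 0.083 without (adjusted p = 0.107), while Tmem198b on the other strand was at -0.12 ± 0.088 with the block (adjusted p = 0.514). Mmp12 was lower in 6 of 6 pairs and not called in either fit (-1.03 ± 0.28, adjusted p = 0.14, and 0.0884 with the block), while DESeq2 called it lower with drugs (-1.04, adjusted p = 0.0135) and higher after CSE (0.82, adjusted p = 0.0431).

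Mmp15, the membrane-type enzyme that was higher in Epi, had 187, 202 and 249 CPM in FibCSETF and 183, 253 and 278 CPM in FibTF, against 114, 120.4 and 172 CPM in FibCSE and 145, 128 and 212 CPM in FibVeh. It was higher with drugs in 6 of 6 pairs although the groups overlapped, at 0.63 ± 0.082 with the block (adjusted p = 0.0154) and 0.62 ± 0.16 without (adjusted p = 0.14). The 2 other members higher in all 6 pairs, Mmp23 (0.73 ± 0.37) and Adamtsl4 (0.50 ± 0.24), were not called in either fit. Over the 35 members 26 fold changes were negative, with a median of -0.282, against -0.00456 over all genes.

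**Figure D2:**
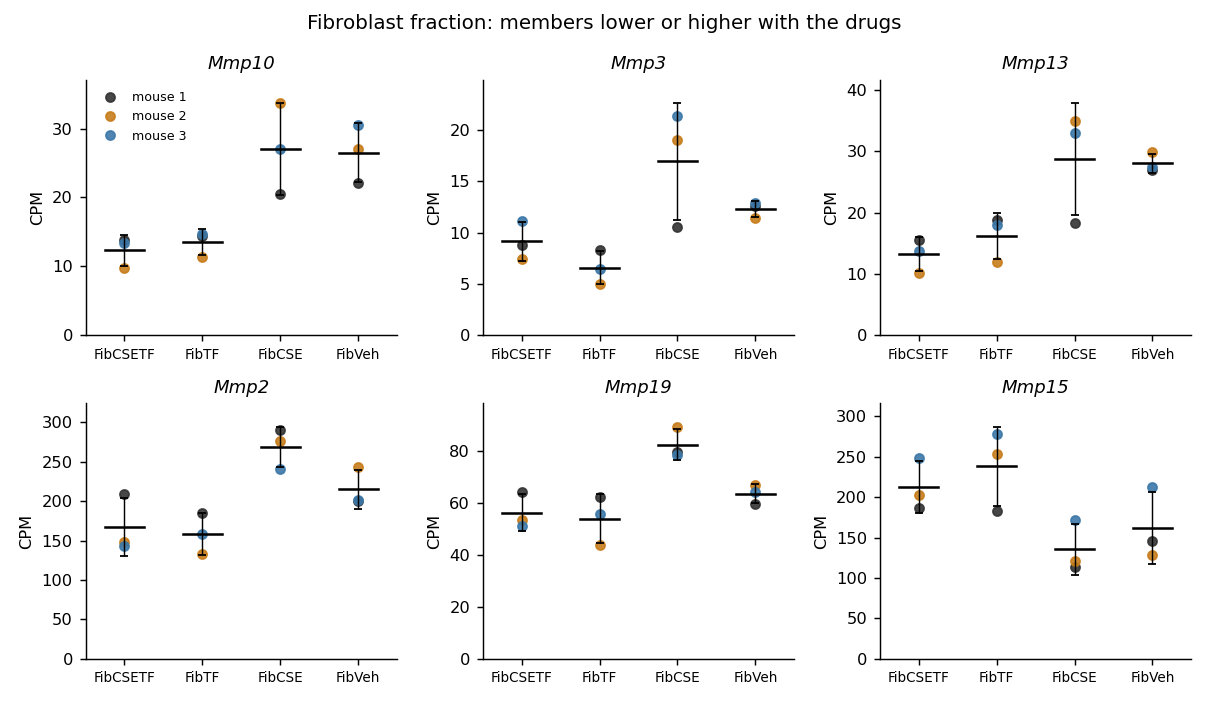
CPM of 6 members in the 12 Fib libraries by group, with mice in colour, the group mean as a line and the SD as error bars (n = 3). Mmp10 is at 9.74 to 14.7 CPM in the 6 libraries with drugs and 20.4 to 33.7 CPM in the 6 without, while the other panels overlap.

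Epithelial marker RNA stood higher in the libraries with drugs in this fraction. All 10 epithelial markers had positive fold changes with drugs, 0 called without the block and 2 with it, and 8 of the 9 fibroblast markers tested had negative ones, 0 called without the block and 2 with it. The epithelial markers summed to 4160 to 6320 CPM in FibCSETF and 3970 to 6260 CPM in FibTF, against 3110 to 4280 CPM in FibCSE and 3250 to 4720 CPM in FibVeh. The fibroblast markers summed to 1050 to 2040 CPM in FibCSETF and 1220 to 1910 CPM in FibTF, against 1710 to 3170 CPM in FibCSE and 1750 to 2200 CPM in FibVeh.

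With the mean log2 level of the epithelial markers as a covariate, with or without the mouse block, 0 members and 0 of all 18287 genes were called, so that 0 says nothing particular about the members. Mmp10 stood at -1.01 with the covariate (adjusted p = 0.668) and at -0.64 with the mouse block as well (adjusted p = 1). In mouse 1 without CSE the marker levels hardly moved, by 0.089 for the epithelial and -0.0036 for the fibroblast markers on the log2 scale, and the Mmp10 ratio of drugs to vehicle was -0.61. In mouse 3 without CSE the markers moved by 0.098 and -0.053 and Mmp10 by -1.05. In mouse 2 without CSE they moved by 0.82 and -0.59 and Mmp10 by -1.25. In these pairs Mmp15 moved by 0.33 in mouse 1, 0.98 in mouse 2 and 0.39 in mouse 3. After CSE the markers moved in every mouse: by 0.41 and -0.20 in mouse 1 with Mmp10 at -0.56, by 0.72 and -0.39 in mouse 2 with Mmp10 at -1.79, and by 0.53 and -0.51 in mouse 3 with Mmp10 at -1.01. Mmp15 moved by 0.71 in mouse 1, 0.75 in mouse 2 and 0.53 in mouse 3 in the pairs after CSE. What part the shift of epithelial RNA had in the called differences was not tested further.

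The Mmp10 call was lost without any 1 of the 8 Fib libraries of mice 2 and 3 (adjusted p 0.0539 to 0.102), without mouse 2 (-0.83, adjusted p = 0.676) and without mouse 3 (-1.05, adjusted p = 0.579). The count of called members was 3 without FibCSE of mouse 1, 2 without FibCSETF of mouse 1 and 6 without mouse 1. Leaving out both CSE-exposed cultures of mouse 1 gave 6 members called, all lower with drugs, against 1.51% of all genes: Mmp10 (-1.15), Mmp13 (-1.12), Mmp3 (-0.98), Mmp2 (-0.61), Mmp19 (-0.43) and the proteoglycan-cutting enzyme Adamts8 (-1.39). These cultures were chosen after seeing the data. Of all pairs, theirs had the smallest drop with drugs for Mmp10 (-0.56), Mmp3 (-0.26) and Mmp13 (-0.23), though not for Mmp2 and Mmp19. The added calls depend on that choice and are no further test of a drug effect.

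Taken by CSE treatment, no drug effect was called. Without CSE, 0 of 35 members were called by edgeR, with or without the block, against 0.00547% of all genes. An unadjusted p under 0.05 was found in 7 members and in 1152 of 18287 genes. DESeq2 called 1 member, Mmp10, and 0.0386% of all features. Here and below, shares for DESeq2 are over all 49280 features, those without counts included. They are not on the same base as the edgeR shares. The smallest p were those of Mmp10 at -0.97 ± 0.19, Mmp3 at -0.90 ± 0.25, Mmp13 at -0.80 ± 0.24, Mmp2 at -0.44 ± 0.16 and Mmp12 at -0.98 ± 0.40. After CSE, 0 were called with or without the block, against 0.0109% of all genes and 0.0328% with the block. Here 9 members and 1908 of 18287 genes had an unadjusted p under 0.05. DESeq2 called 4 members and 0.28% of all features. The smallest p were those of Mmp10 at -1.11 ± 0.19, Mmp13 at -1.10 ± 0.24, Mmp19 at -0.53 ± 0.12, Mmp2 at -0.67 ± 0.16 and Mmp3 at -0.86 ± 0.25. Mmp10 had an adjusted p of 0.195 after CSE, 0.0818 with the block, and 0.611 without CSE. The interaction of drugs and CSE, which asks whether these effects differ, had 0 members called by edgeR or DESeq2, against 0% of all genes. It had 0 members with an unadjusted p under 0.05, against 362 of 18287 genes. Its smallest p were those of Adamts4 at -0.56 ± 0.26, Mmp19 at -0.29 ± 0.17, Timp4 at 0.60 ± 0.37, Mmp24 at 0.36 ± 0.26 and Mmp9 at -0.42 ± 0.35.

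Mmp10, Mmp3, Mmp13 and Mmp12 lie in 1 cluster of 10 Mmp genes on chromosome 9 that runs Mmp13, Mmp12, Mmp1b, Mmp3, Mmp1a, Mmp10, Mmp8, Mmp27, Mmp20 and Mmp7. The promoter windows of 3 of them are printed because these are the cluster members called with the drugs in either fit. The sequences are RefSeq's for assembly GRCm38.p6, 250 bases before to 50 after the start of the transcript, 5′ to 3′ on the gene's strand, and capitals mark the letters of an AP-1 motif, TGANTCA on either strand.
Mmp10 (chr9:7502092-7502391, + strand): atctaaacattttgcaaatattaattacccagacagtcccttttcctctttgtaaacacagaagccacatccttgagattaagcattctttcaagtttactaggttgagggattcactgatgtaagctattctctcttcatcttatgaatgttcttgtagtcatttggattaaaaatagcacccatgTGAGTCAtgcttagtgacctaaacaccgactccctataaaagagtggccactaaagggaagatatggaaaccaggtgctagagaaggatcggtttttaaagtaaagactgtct
Mmp3 (chr9:7445572-7445871, + strand): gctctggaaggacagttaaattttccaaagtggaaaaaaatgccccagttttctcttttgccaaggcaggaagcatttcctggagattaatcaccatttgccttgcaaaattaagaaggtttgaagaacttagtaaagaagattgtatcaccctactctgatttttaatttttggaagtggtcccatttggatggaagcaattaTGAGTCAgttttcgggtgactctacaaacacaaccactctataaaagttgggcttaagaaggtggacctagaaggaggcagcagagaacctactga
Mmp13 (chr9:7272264-7272563, + strand): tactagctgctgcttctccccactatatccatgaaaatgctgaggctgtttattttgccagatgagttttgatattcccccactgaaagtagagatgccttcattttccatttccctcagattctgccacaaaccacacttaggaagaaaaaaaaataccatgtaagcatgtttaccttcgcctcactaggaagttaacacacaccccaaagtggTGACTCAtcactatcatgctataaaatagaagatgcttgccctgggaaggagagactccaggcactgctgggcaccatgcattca

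The motif began 63 bases before the start in Mmp10, 46 in Mmp3 and 35 in Mmp13, and Mmp12 held it at 44 bases. RefSeq had windows for 36 of the 51 members, and 8 held the motif, all of them in this cluster: the 4 above and Mmp1a, Mmp1b, Mmp7 and Mmp20. Of the 23 members tested in Fib that had a window, 4 held it. Over all 32851 windows of the same length the share was 7.81%. The 8 are neighbouring genes of the same family, so they are not separate draws and no enrichment was tested. The TATA motif, TATAAA on the gene's strand, was in 11 members and in 8.32% of all windows, while the cyclic AMP response element, TGACGTCA, and the Egr motif, GCGTGGGCG, each on either strand, were in 0 members' windows and in 1.79% and 0.612% of all. A match of letters is not a measured site, and binding was not measured here.

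After CSE in the first culture, 3 other members were lower in the fibroblast fraction, which also held RNA of the exposed epithelium. Averaged over drugs, 3 of 35 members were called, all lower after CSE, where 4.01% of all genes were called and 2.18% were lower. The 3 were Mmp24, Adamts6 and Timp1, and each was lower after CSE in 6 of 6 pairs of the same mouse and drug treatment. The median was -0.0286 over the members and 0.0241 over all genes.

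Mmp24, a membrane-type enzyme known from the nervous system, had 4.69, 4.92 and 4.16 CPM in FibCSETF and 3.46, 5.30 and 3.92 CPM in FibCSE, against 10.2, 6.95 and 8.38 CPM in FibTF and 10.02, 10.7 and 8.97 CPM in FibVeh. All 6 libraries with CSE were below all 6 without, and the log2 fold change was -1.05 ± 0.13 (SE; adjusted p = 0.00416). BC029722, whose exons on the other strand cover 13.6% of the exon length of Mmp24 and which was at 40.8 to 61.4 CPM in Fib, was at -0.17 ± 0.067 (adjusted p = 0.184). The call held with the epithelial marker covariate (-1.03, adjusted p = 0.00242) and was lost without mouse 3 (-1.03, adjusted p = 0.398).

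Adamts6, which acts on the fibrillin matrix in mice, had 6.20, 3.43 and 3.28 CPM in FibCSETF and 5.46, 5.09 and 4.26 CPM in FibCSE, against 11.1, 6.30 and 10.2 CPM in FibTF and 8.20, 7.53 and 7.67 CPM in FibVeh. All 6 libraries with CSE were below all 6 without, and the log2 fold change was -0.86 ± 0.18 (adjusted p = 0.0288). The call held with the marker covariate (-0.87, adjusted p = 0.00393), and was lost without mouse 2 (-0.93, adjusted p = 0.0922), without mouse 3 (-0.70, adjusted p = 0.567) and without any 1 of 8 single libraries, namely FibVeh and FibTF of mouse 1, FibCSE and FibCSETF of mouse 2 and all 4 of mouse 3 (adjusted p 0.0579 to 0.0871).

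The inhibitor Timp1 had 155, 123 and 104 CPM in FibCSETF and 156, 118 and 103 CPM in FibCSE, against 188, 162 and 179 CPM in FibTF and 164, 185 and 185 CPM in FibVeh. All 6 libraries with CSE were below all 6 without, and the log2 fold change was -0.47 ± 0.12 (adjusted p = 0.0486). With the marker covariate it was at -0.48 (adjusted p = 0.0168). The call was lost without mouse 2 (-0.45, adjusted p = 0.228), without mouse 3 (-0.33, adjusted p = 0.585), without any 1 of 9 single libraries (adjusted p 0.0843 to 0.129), all but FibCSETF and FibCSE of mouse 1 and FibTF of mouse 2, and with another scaling (0.0503) or no filter on low counts (0.0703).

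The count of 3 became 7 without FibCSE of mouse 1, and 1 without any 1 of the 8 libraries named for Adamts6. With the mouse as a block 6 members were called, all lower after CSE, against 8.69% of all genes, 3.89% lower. The block added Timp3, Mmp9 and Adamtsl4. Timp3 had 703, 1172 and 870.0 CPM in FibCSETF and 529.7, 1020 and 991 CPM in FibCSE, against 1257, 1152 and 1183 CPM in FibTF and 1166, 1583 and 1434 CPM in FibVeh. It was lower in 5 of 6 pairs and the groups overlapped at mouse 2, at -0.58 ± 0.12 with the block (adjusted p = 0.0206) and -0.54 ± 0.17 without (adjusted p = 0.101). The gelatinase Mmp9 had 34.0, 25.4 and 32.5 CPM in FibCSETF and 26.3, 53.1 and 53.9 CPM in FibCSE, against 61.3, 45.2 and 65.8 CPM in FibTF and 49.9, 58.5 and 73.6 CPM in FibVeh. It was lower in 6 of 6 pairs with overlapping groups, at -0.67 ± 0.16 with the block (adjusted p = 0.0348) and -0.67 ± 0.18 without (adjusted p = 0.0641). Adamtsl4 had 216, 116 and 210.2 CPM in FibCSETF and 153, 73.8 and 138 CPM in FibCSE, against 216, 249 and 302 CPM in FibTF and 199, 121 and 256 CPM in FibVeh. It was lower in 5 of 6 pairs and level in mouse 1 under drugs, with mouse 2 lowest in FibCSETF, FibCSE and FibVeh, at -0.60 ± 0.15 with the block (adjusted p = 0.0436) and -0.56 ± 0.24 without (adjusted p = 0.206).

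**Figure D3:**
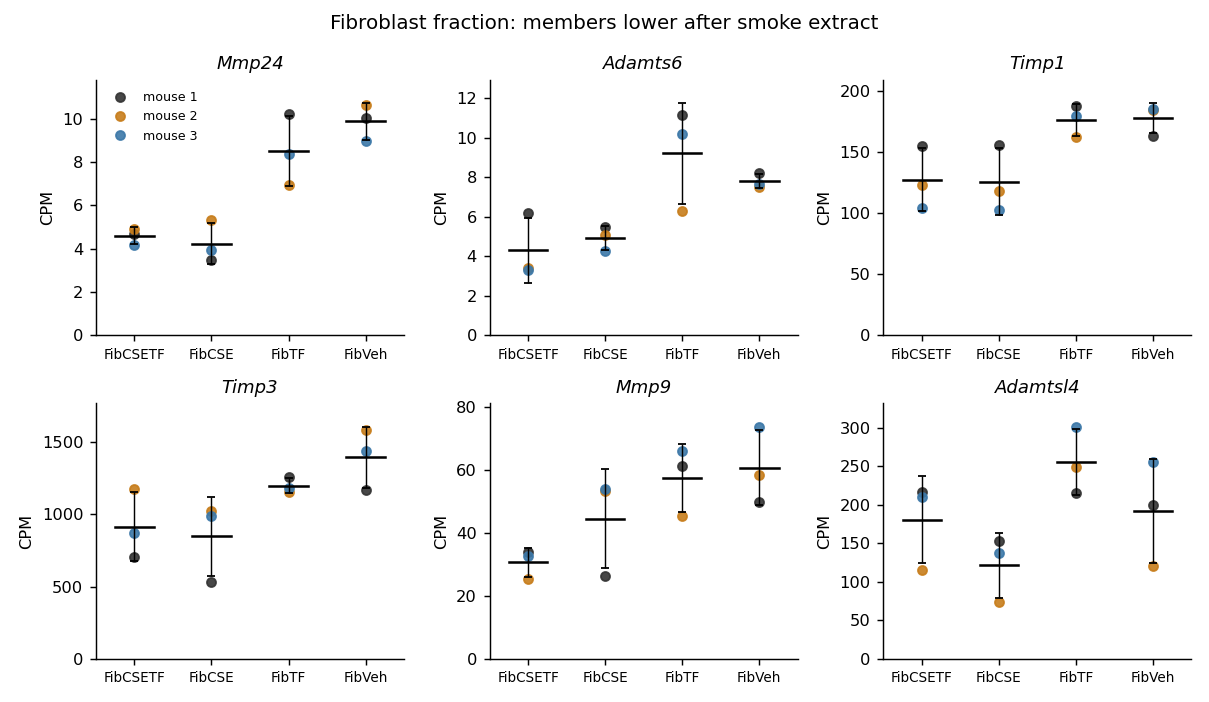
CPM of 6 members in the 12 Fib libraries by group, with mice in colour, the group mean as a line and the SD as error bars (n = 3). In Mmp24, Adamts6 and Timp1 all 6 libraries with CSE lie below all 6 without, and in Timp3, Mmp9 and Adamtsl4 the groups overlap. The share of all genes that separate in this way was not counted.

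For CSE in this fraction, 6 of 10 epithelial markers had positive and 4 negative fold changes, 6 of the 9 fibroblast markers tested had negative ones, and 0 of either list were called without the block, 1 fibroblast marker being lower with it. The members called lower with the drugs in either fit were not called here, with Mmp10 at -0.043 ± 0.13, Mmp13 at -0.12 ± 0.17, Mmp3 at 0.48 ± 0.18, Mmp2 at 0.21 ± 0.11 and Mmp19 at 0.23 ± 0.083. Mmp19 was called higher after CSE with the epithelial marker covariate (0.24, adjusted p = 0.0358) and with covariate and block (0.24, adjusted p = 0.0146). Nor were Timp1 and Timp3 with the drugs, at 0.013 ± 0.12 and -0.036 ± 0.17. Timp2 was at -0.28 ± 0.096 with drugs (adjusted p = 0.214) and 0.062 ± 0.095 after CSE (adjusted p = 0.755), and Mmp14 at 0.0013 ± 0.062 with drugs and -0.11 ± 0.062 after CSE. Timp2 had 667, 791 and 769 CPM in FibCSETF and 697, 1043 and 956 CPM in FibCSE, against 778, 670.5 and 670.4 CPM in FibTF and 893, 953 and 799 CPM in FibVeh, and Mmp14 had 281, 261 and 291 CPM in FibCSETF and 263, 302 and 317 CPM in FibCSE, against 302, 317 and 333 CPM in FibTF and 296, 281 and 338 CPM in FibVeh, so that for both the groups overlapped.

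Without drugs, 1 member was called after CSE, Mmp24 at -1.23 ± 0.18 (adjusted p = 0.0427, and 0.0193 with the block), where 0.104% of all genes were called, 0.093% lower, and 0.678% with the block. It was lower in 3 of 3 mice, and the call was lost without any 1 mouse and without any 1 Fib library but FibTF of mouse 2 (adjusted p 0.0636 to 0.177 for single libraries). The next smallest p were those of Mmp19 at 0.38 ± 0.12, Timp1 at -0.50 ± 0.16, Timp3 at -0.73 ± 0.24 and Timp4 at -0.67 ± 0.26. Under the drugs, 0 members were called by edgeR, with or without the block, against 0% of all genes and 0.602% with the block. Of 35 members 5 had an unadjusted p under 0.05, against 2155 of 18287 genes. DESeq2 called 3 members, Mmp24, Adamts6 and Mmp9, all lower, and 0.722% of all features. The smallest p were those of Mmp24 at -0.86 ± 0.18, Adamts6 at -1.07 ± 0.26, Mmp9 at -0.88 ± 0.25, Timp1 at -0.45 ± 0.16 and Adamts7 at -0.56 ± 0.25.

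In the fibroblast fraction the CSE-exposed cultures of mouse 1 stood above the other 10 libraries in 10.7% of 15542 genes. Among these were 6 ADAMTS family members, which did not reach such levels in the cultures of mice 2 and 3. Adamts2 had 24.99, 1.73 and 1.84 CPM in FibCSETF and 50.1, 3.09 and 2.18 CPM in FibCSE, against 3.72, 3.98 and 4.67 CPM in FibTF and 4.59, 5.32 and 5.06 CPM in FibVeh. Its FibCSETF and FibCSE libraries of mouse 1 were the 2 highest of the 12, at 6.49 and 13.0 times the median of the other 10, and those of mice 2 and 3 were the 4 lowest. Adamts9, a versican-cutting enzyme, had 7.65, 1.102 and 0.908 CPM in FibCSETF and 15.6, 2.60 and 2.05 CPM in FibCSE, against 2.26, 1.38 and 1.102 CPM in FibTF and 2.51, 2.02 and 1.67 CPM in FibVeh. Adamtsl1 had 5.12, 0.745 and 0.883 CPM in FibCSETF and 8.63, 0.753 and 0.581 CPM in FibCSE, against 1.32, 0.742 and 0.615 CPM in FibTF and 0.880, 1.30 and 1.12 CPM in FibVeh. For both genes the same 2 libraries of mouse 1 stood above the other 10.

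Adamts12 (5.23 and 10.8 CPM in these 2 libraries, 2.22 to 4.95 CPM in the others), Adamts14 (66.3 and 100.6 CPM, 26.3 to 57.8 CPM in the others) and Adamts1 did the same to a lesser degree. Adamts1 had 65.8, 47.0 and 41.3 CPM in FibCSETF and 102, 47.8 and 45.7 CPM in FibCSE, against 51.2, 46.2 and 45.6 CPM in FibTF and 60.7, 45.6 and 45.5 CPM in FibVeh. In all, 6 of the 34 members with at least 1 CPM in a Fib library, 17.6%, were higher in both libraries than in the other 10, against 10.7% of 15542 genes, and 2 members, Timp3 and Adamtsl5, were lower in both, 5.88%, against 5.51%. Standing apart in these libraries was therefore not particular to the members. In Epi libraries of the same cultures Adamts2 was at 1.06 and 1.53 CPM, above the other 10 at 0.214 to 1.03 CPM, while the other 5 genes overlapped.

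**Figure D4:**
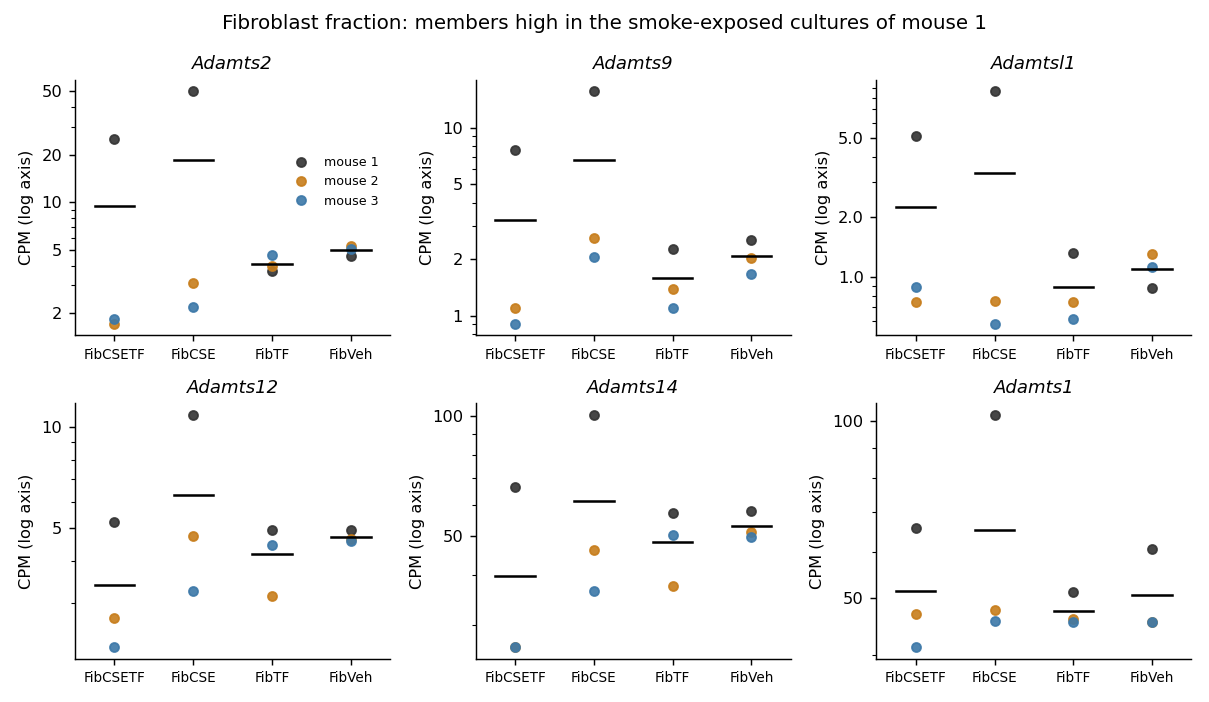
CPM on log axes of 6 ADAMTS family members in the 12 Fib libraries by group, with mice in colour and the group mean as a line. The FibCSETF and FibCSE libraries of mouse 1 lie above the other 10 in each panel, at 24.99 and 50.1 CPM for Adamts2 against at most 5.32 CPM.

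With all libraries Adamts2 was at 1.56 ± 0.85 after CSE, averaged over drugs (adjusted p = 0.328), but at -1.06 without the CSE-exposed cultures of mouse 1 (adjusted p = 0.00319). Without these cultures 10 members were called, against 13.6% of all genes. Lower after CSE were Timp1 (-0.66), Mmp24 (-0.996), Adamts6 (-1.09), Mmp9 (-0.58), Adamts2, Adamts7 (-0.64) and Adamts14 (-0.61). Higher were Mmp3 (0.62), Mmp12 (0.94) and Adamts8 (1.38). The Fib libraries left out were the highest for Adamts2 and Adamts14 and were chosen after seeing the data. Adamts2, Adamts14, Adamts7, Mmp3, Mmp12 and Adamts8 were not called by edgeR with all libraries, with or without the mouse block. Their calls here depend on that choice and are no test of a CSE effect. Adamts7, the enzyme of cartilage oligomeric matrix protein, was at -0.40 ± 0.18 with all libraries, Mmp12 at 0.82 ± 0.28 and Adamts8 at 1.05 ± 0.42, with adjusted p of 0.219, 0.121 and 0.177.

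In the epithelial fraction, 0 of 36 members were called in any of the 7 treatment comparisons by edgeR, with or without the mouse block, or by DESeq2. With drugs, averaged over CSE, 0.00554% of all genes were called. An unadjusted p under 0.05 was found in 3 members and in 1138 of 18038 genes. The smallest p were those of Mmp10 at -0.96 ± 0.30, Mmp3 at -1.15 ± 0.38, Adamts8 at -1.96 ± 0.84, Adamtsl3 at -0.64 ± 0.29 and Adamts7 at -0.36 ± 0.17, with adjusted p of 0.677 for Mmp10 and 0.723 for Mmp3. Mmp10 had 2.91, 6.47 and 5.52 CPM in EpiCSETF and 3.96, 3.82 and 3.78 CPM in EpiTF, against 4.28, 16.9 and 9.999 CPM in EpiCSE and 5.42, 9.92 and 7.05 CPM in EpiVeh. Mmp3 had 1.43, 2.61 and 2.57 CPM in EpiCSETF and 1.77, 1.11 and 0.555 CPM in EpiTF, against 2.67, 8.65 and 5.98 CPM in EpiCSE and 1.84, 3.86 and 1.26 CPM in EpiVeh. Both were lower with drugs in 6 of 6 pairs, and the groups overlapped.

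The EpiCSE library of mouse 2 was the highest of the 12 Epi libraries for Mmp10, Mmp3, Mmp13, Mmp2, Mmp19 and Mmp9, and also for the fibroblast markers, whose mean log2 CPM was 3.78 there. Mmp13 had 4.13, 5.65 and 9.14 CPM in EpiCSETF and 7.57, 5.63 and 7.20 CPM in EpiTF, against 5.77, 20.1 and 14.4 CPM in EpiCSE and 6.23, 9.11 and 7.14 CPM in EpiVeh. Mmp2 had 16.2, 39.0 and 26.9 CPM in EpiCSETF and 21.6, 25.7 and 10.7 CPM in EpiTF, against 21.5, 106 and 55.2 CPM in EpiCSE and 23.8, 48.4 and 18.4 CPM in EpiVeh. Mmp9 had 4.04, 8.26 and 6.47 CPM in EpiCSETF and 7.03, 8.39 and 4.68 CPM in EpiTF, against 3.33, 24.6 and 12.9 CPM in EpiCSE and 7.39, 13.6 and 8.19 CPM in EpiVeh. In the same groups fibroblast markers summed to 155 to 324 CPM in EpiCSETF and 103 to 215 CPM in EpiTF, against 203 to 783 CPM in EpiCSE and 164 to 404 CPM in EpiVeh. With the fibroblast markers as a covariate Mmp10 was at -0.56 and Mmp3 at -0.69 with drugs, against -0.96 and -1.15 without the covariate, and neither was called. What part fibroblast RNA had in these values was not tested further.

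The other members that were set out by name were not called with drugs in Epi either. Mmp14 had 392, 283 and 398 CPM in EpiCSETF and 381, 352 and 485 CPM in EpiTF, against 404, 333 and 365 CPM in EpiCSE and 399, 313 and 469 CPM in EpiVeh, and its fold change was 0.048 ± 0.13. Adamts1 had 37.0, 39.6 and 37.8 CPM in EpiCSETF and 45.5, 42.4 and 38.2 CPM in EpiTF, against 38.5, 46.3 and 38.7 CPM in EpiCSE and 46.2, 33.2 and 43.8 CPM in EpiVeh, and its fold change was 0.0062 ± 0.084. For both genes the groups overlapped. Adamts2 stayed under 2 CPM, at 1.06, 0.659 and 0.214 CPM in EpiCSETF and 0.547, 0.669 and 0.291 CPM in EpiTF, against 1.53, 0.943 and 0.684 CPM in EpiCSE and 0.363, 1.03 and 0.653 CPM in EpiVeh. Among the inhibitors, Timp1 had 21.6, 35.1 and 25.4 CPM in EpiCSETF and 28.3, 34.3 and 26.5 CPM in EpiTF, against 20.1, 47.3 and 25.2 CPM in EpiCSE and 27.5, 45.8 and 25.5 CPM in EpiVeh, at -0.11 ± 0.22. Timp2 had 429.6, 593 and 486 CPM in EpiCSETF and 478, 499 and 458 CPM in EpiTF, against 449, 712 and 550.5 CPM in EpiCSE and 505, 592 and 453 CPM in EpiVeh, at -0.100 ± 0.11. In both inhibitors mouse 2 had the highest library of each group. Timp3 had 257, 651 and 368 CPM in EpiCSETF and 292, 431 and 201 CPM in EpiTF, against 215, 582 and 426 CPM in EpiCSE and 294, 594 and 254 CPM in EpiVeh, at -0.073 ± 0.32, again with mouse 2 highest in each group.

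After CSE, averaged over drugs, 0 members were called in Epi against 0.00554% of all genes. An unadjusted p under 0.05 was found in 5 members and in 1512 of 18038 genes. The smallest p were those of Mmp3 at 1.09 ± 0.38, Adamts8 at 2.07 ± 0.84, Adamtsl5 at 0.14 ± 0.056, Adamtsl1 at 0.74 ± 0.34 and Mmp12 at 1.07 ± 0.48, with an adjusted p of 0.501 for Mmp3. Of the 36 members 27 had positive fold changes, with a median of 0.214, against 0.00264 over all genes, and the fibroblast markers of mice 2 and 3 were also higher after CSE, by 0.38 to 0.68 on the log2 scale, while those of mouse 1 were lower, by -0.55 without and -0.47 under drugs. With the fibroblast markers and the mouse as terms together, 3 members were called, against 1.96% of all genes: Mmp2 at 0.38 (adjusted p = 0.0327), Mmp15 at -0.25 (0.0243) and Mmp24 at -0.70 (0.0363).

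In the 5 other Epi comparisons 0% of all genes were called by edgeR without the block, and at most 0.0333% with it. With drugs and no CSE, 1 member and 473 of 18038 genes had an unadjusted p under 0.05. The smallest p were those of Adamts17 at -1.77 ± 0.80, Mmp10 at -0.91 ± 0.43, Mmp3 at -0.96 ± 0.54, Adamts7 at -0.30 ± 0.24 and Adamts8 at -1.56 ± 1.31, where Adamts17 had at most 17 counts in a library. With drugs after CSE it was 5 members and 754 genes. The smallest p were those of Mmp13 at -1.03 ± 0.39, Mmp3 at -1.33 ± 0.53, Mmp10 at -1.004 ± 0.43, Mmp16 at -1.45 ± 0.63 and Adamts8 at -2.37 ± 1.06. After CSE without drugs it was 4 members and 667 genes, the smallest p being those of Mmp16 at 1.53 ± 0.63, Mmp3 at 1.27 ± 0.53, Adamts8 at 2.48 ± 1.07, Mmp12 at 1.48 ± 0.67 and Mmp13 at 0.80 ± 0.39. After CSE under drugs it was 0 members and 901 genes, and for the interaction 0 members and 207 genes. The smallest p were those of Adamts17 at 1.69 ± 0.81, Adamtsl5 at 0.16 ± 0.080, Adamts6 at -0.73 ± 0.38, Adamtsl1 at 0.88 ± 0.49 and Mmp3 at 0.91 ± 0.54 after CSE under drugs, and those of Adamts4 at -1.03 ± 0.61, Mmp13 at -0.93 ± 0.55, Adamts17 at 1.69 ± 1.06, Adamts6 at -0.62 ± 0.53 and Mmp16 at -1.07 ± 0.95 for the interaction.

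No member's response was called different between the fractions, where 0% of 19142 genes were called for either treatment without the block, and 0.00522% for CSE with it. For the drugs, 0 of 37 members were called by edgeR or DESeq2 and 0 had an unadjusted p under 0.05, against 499 of 19142 genes. The smallest p were those of Mmp1a at -3.32 ± 1.85, Mmp15 at -0.39 ± 0.23, Adamts17 at -1.55 ± 1.03, Adamts6 at -0.46 ± 0.33 and Adamts7 at -0.35 ± 0.26 (Epi effect minus Fib effect), the value of Mmp1a resting on at most 16 counts a library. For CSE, 0 were called by either tool and 1 had an unadjusted p under 0.05, against 1652 of 19142 genes. The smallest p were those of Adamts7 at 0.62 ± 0.26, Timp3 at 0.80 ± 0.39, Mmp24 at 0.92 ± 0.46, Mmp9 at 0.83 ± 0.45 and Mmp28 at 0.24 ± 0.14. Mmp10 was at -0.96 ± 0.30 with drugs in Epi and -1.04 ± 0.14 in Fib, so its call in Fib alone does not show that the fractions differ.

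**Figure D5:**
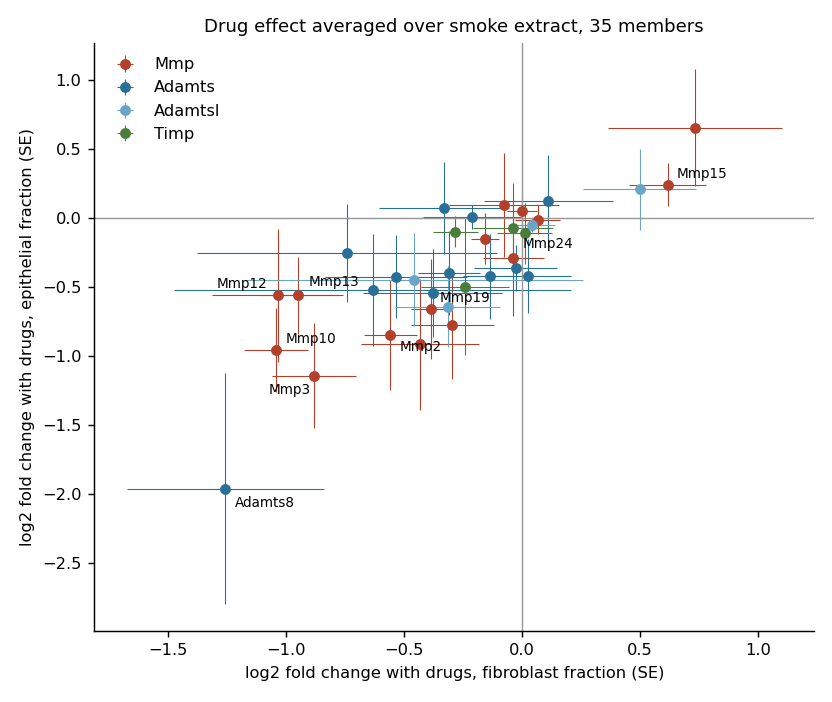
Log2 fold change with drugs averaged over CSE in the Fib fraction on the x axis and the Epi fraction on the y axis, with standard errors, for the 35 members tested in both. Mmp10, Mmp3, Mmp13, Mmp12, Mmp2 and Mmp19 have negative values in both fractions and Mmp15 has positive ones, and Mmp10 in Fib is the value that was called.

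Genes that work with these enzymes were counted from lists chosen for this purpose. In Fib with drugs, 0 genes of any of the 6 lists were called without the mouse block, where 0.109% of all genes were called. With the block, 1.6% of all genes were higher and 0.935% lower. Of 11 tested AP-1 and ETS genes 2 were higher and 1 lower: Fos, an AP-1 subunit (0.54 ± 0.11), and Ets2 (0.29 ± 0.061), against Fosl1, also an AP-1 subunit (-0.26 ± 0.050). Of 9 plasminogen activation genes 1 was lower, Serpine2, an inhibitor of plasminogen activators (-0.57 ± 0.12), and of 16 matrix substrates 1 was lower, the collagen gene Col1a2 (-0.70 ± 0.13). The 11 ADAM genes, the 11 cathepsins and the 11 tested genes for activation, anchoring and clearance had 0 calls. The matrix substrates had a median of -0.386 with the block, against -0.00389 over all genes, and the other 5 lists between -0.0032 and 0.152.

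In Fib after CSE without the block, Fos (0.76 ± 0.13, adjusted p = 0.0133) and Etv5, an ETS factor (0.31 ± 0.068, adjusted p = 0.0331), were higher and Fosl1 lower (-0.31 ± 0.059, adjusted p = 0.0195) among 11 AP-1 and ETS genes. Of the ADAM family, membrane relatives of the ADAMTS enzymes, 1 of 11 was lower, Adam12 (-0.98 ± 0.16, adjusted p = 0.0119), and of 11 cathepsins 1 was lower, the lysosomal protease Ctsl (-0.28 ± 0.067, adjusted p = 0.0443). The other 3 lists had 0 calls. Of all genes tested in Fib, 4.01% were called after CSE and 2.18% were lower. Between the fractions, 12 of 16 matrix substrates were lower in Epi and 3 higher, with a median of -2.37, against -1.84 over the members, while of 11 ADAM genes 5 were higher and 5 lower. Over all genes tested, 34.7% were higher and 34.2% lower in Epi, and the ADAM counts are near these shares.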

How the data were processed

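The deposited values are counts of reads per gene, taken as raw because they are whole numbers with unequal totals. Sequencing of poly-A RNA was by Illumina, per the labels. The submitters' processing notes name Trimmomatic 0.30 and DESeq2. No source used here names the aligner, the counter or the use of strand, so overlapping genes on the 2 strands and near-identical genes can share reads. The assembly is named as mouse but by a human assembly's name, so the build is not settled, and exon lengths and overlaps are GENCODE M21's, and promoter windows and gene order are RefSeq's for GRCm38.p6. How the cells were separated by Epcam is not given either.

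Counts were fitted with edgeR 4.0.16 in R 4.3.3 (TMM scaling, filter on low counts by group, robust quasi-likelihood F tests, Benjamini-Hochberg adjustment over all genes tested), with 4 group means over the 12 libraries of a fraction, or 8 over all 24. Drug and CSE effects were averaged over the other factor, taken at each level of it, and tested for interaction. SE is the fold change divided by the root of F. CPM are counts over the library total, not TMM-scaled. DESeq2 1.42.0, other scaling, no filter, marker covariates and leaving out libraries were alternatives, and the fits were tested on simulated data. Marker scores are mean log2 CPM with a prior count of 2. No libraries held identical values, and replicates differed beyond sampling noise (chi-square over its degrees of freedom 15.5 to 133).

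The mouse number pairs the libraries, since it names the animal whose epithelium was used. Deviations of same-numbered libraries from their group means correlated between 0.0114 and 0.505 in Epi and between -0.014 and 0.521 in Fib. The fit with the mouse as a block is given where it changed a call or a count.

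Named are members called in either fit, the 5 with the smallest p where fewer were called, and a set of 11 (Mmp2, Mmp3, Mmp9, Mmp10, Mmp13, Mmp14, Timp1, Timp2, Timp3, Adamts1, Adamts2). A gene of the plasminogen list is not reported here. The members and lists were chosen with earlier results of these data known. The alternative without the CSE-exposed cultures of mouse 1 and that with each culture as a block were added after seeing the data.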

Additional observations from a re-analysis of the deposited data

How the results depend on the processing

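Counts of called members depended on the setting in the fibroblast fraction, and so did the number of all genes called. For the drugs averaged over CSE, 1 member of 20 genes called was reported, with 6 of 464 with the mouse number as a block, 8 of 673 by DESeq2 (1 up, 7 down), 6 of 281 without the CSE-exposed cultures of mouse 1, and 0 of 0 with the epithelial marker covariate, with or without the block. For CSE averaged over drugs the count was 3 of 733 genes called as reported, 6 of 1589 with the block, 6 of 1634 by DESeq2 (1 up, 5 down), 4 of 1151 with the covariate (1 up, 3 down), 8 of 1881 with the covariate and the block (2 up, 6 down) and 10 of 2538 without those cultures (3 up, 7 down). DESeq2 called 1 member of 19 genes for the drugs without CSE, 4 of 138 for the drugs after CSE and 3 of 356 for CSE under drugs, where 0 members were reported. For CSE without drugs the count was 1 of 19 as reported, 2 of 318 with covariate and block and 3 of 350 without the cultures of mouse 1. For CSE under drugs it was 7 of 813 without them. In Epi, CSE averaged over drugs gave 3 of 353 with covariate and block and 0 members otherwise. The cause of these differences was not tested.

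Leaving out single libraries or mice gave 0 to 6 calls for the drugs and 0 to 7 for CSE averaged over the other factor in Fib, 0 to 1 for CSE without drugs and 30 to 35 between the fractions, while all other comparisons stayed at 0. The drug count was 6 without mouse 1 and 0 without mouse 2 or mouse 3, and the CSE count 7 without mouse 1, 1 without mouse 2 and 0 without mouse 3.

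Adamts2 reversed after CSE in Fib: 1.56 became -1.06 without the CSE-exposed cultures of mouse 1 and -1.11 without mouse 1 (range -1.11 to 2.12 leaving out libraries or mice, the highest without mouse 3), 1.92 became -0.94 without drugs, and 1.21 became -1.17 under drugs, the last pair also without those cultures. Each reversal came with leaving out the highest Fib libraries for Adamts2 and is no test of a CSE effect. Of 6397 values of named genes under alternatives, 6255 kept their side of the threshold, 75 lost a call, 63 gained a call and 4 reversed. Of those that kept their side, 314 were called in neither setting and differed in sign. With 3 mice a group and many members at a few CPM, a difference that was not called is not shown to be absent.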

Other observations

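The plasminogen system, whose active enzyme plasmin can cut the precursors of several matrix metalloproteases, had 4 of 9 tested genes higher in Epi. This is near the share of 34.7% of all genes (edgeR's quasi-likelihood test, adjusted over all genes, with log2 fold changes, Epi over Fib, and SE). The 4 genes are named without a claim about the list. These were Plau, which encodes urokinase (1.38 ± 0.11), the plasminogen-binding annexin Anxa2 (0.43 ± 0.077) and the serpins Serpinb2 (1.72 ± 0.21) and Serpinf2 (0.71 ± 0.27). Serpine2, an inhibitor of plasminogen activators, was lower (-2.17 ± 0.17).

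Among 11 tested genes for the activation, anchoring and clearance of the metalloproteases, 6 were higher and 3 lower in Epi. Of all genes 34.7% were higher and 34.2% lower. The list's median was 0.445, against 0.0255 over all genes. The proprotein convertases Furin (0.52 ± 0.092), Pcsk5 (1.24 ± 0.12) and Pcsk6 (1.08 ± 0.097) were higher, as was Cd44, which can anchor Mmp9 at the cell surface (0.45 ± 0.068). Reck, a membrane-bound inhibitor of several members (-2.35 ± 0.18), and Lrp1, a receptor that takes up Mmp and TIMP proteins (-0.97 ± 0.072), were lower. The epithelial fraction was higher in convertases, Mmp14 and Mmp15, and lower in most secreted proteases and in all 4 TIMPs.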
